A study of Mus musculus with 8 samples.

Results

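Collagens are the triple-helical proteins that give the extracellular matrix its strength. The members described here are the collagen chain genes on a mouse gene-expression array, that is, each probe whose gene symbol is Col, a number, the letter a and a number. The rule found 67 of 56605 non-control probes, for 44 of the 22911 genes the array's probes could be named for. In healthy brain tissue collagen is scarce: it is found mainly in the meninges, around large vessels and in the basement membranes of capillaries and of the glial limiting layer. After a penetrating or freezing injury, fibroblast-like and perivascular cells lay down a collagen-rich scar beside the astrocytic one, and new vessels make basement membrane. Fibrillar collagens build the banded fibres, network collagens build the sheet of the basement membrane, and fibril-associated collagens sit on the surface of fibres. Interleukin-6 is a cytokine that acts largely through the transcription factor STAT3 and rises in injured brain.

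RNA of the right fronto-parietal cortex was measured in 16 mice, 4 in each of 4 groups. Floxed mice, in which a gene is flanked by recombination sites but intact, served as the genotype control. The other genotype is called microglia-derived Il6 deficient and is named Il6-deficient below. Each genotype was taken without a lesion (control) or after a cryolesion, a focal freezing injury of the cortex. The promoter that drives the deletion, the deleted part, the strain, the age and the time after the lesion are not given in the sources used here. A loss limited to microglia, as the name has it, would leave the Il6 gene of other brain cells in place. Each of 8 2-colour arrays carried 2 mice of different groups, with the dyes in opposite order on the 2 arrays of each pairing. The pairings were both controls, both cryolesioned groups, floxed cryolesioned with Il6-deficient control, and Il6-deficient cryolesioned with floxed control. No array held the cryolesioned and control mice of 1 genotype. The mean cryolesion change of both genotypes is therefore the mean of the 4 arrays that carry a cryolesioned and a control mouse, and a change within 1 genotype also needs the arrays that compare genotypes.

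Each channel detected 61% to 67.4% of the probes clearly above background, and no probe was saturated. Levels below are log2 intensities after normalization, and they can be compared between mice for 1 probe but not between probes. All arrays carry 1 slide number and 1 scan number in their headers, so no such batch could be tested. The sexes were not balanced: Xist, the X-inactivation RNA of female cells, was above background in 3 of 4 floxed control mice and in 1 of 4 Il6-deficient controls, and in 0 of the 8 cryolesioned mice. The fit with sex as a covariate is given beside the calls it ended. Of the 44 collagen genes 36 passed the filter on dim probes, which needs a probe well above background in 4 of the 16 channels, and 29 of these were above background in all 16.

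The start regions of 5 of these genes show 2 arrangements. Col4a1 and Col4a2, which encode the 2 chains of the common basement membrane collagen, start 21 bases apart on opposite strands, so that their windows share 78 bases. The other 3 are the fibrillar genes Col3a1 and Col5a3 and the fibril-associated gene Col16a1, all of which rose after cryolesion. Each window holds 250 bases before and 50 after the annotated start, from RefSeq on build GRCm38.p6, 5′ to 3′ on the gene's own strand. Capitals mark the matches of 5 motifs, searched on both strands: TTCNNNGAA, the core recognised by STAT factors; TGANTCA, that of the activator protein AP-1; GGGCGG, known as the GC box; CCAAT, the box of that name; and TATAAA, the TATA box.
Col4a1, chr8:11312777-11313076, minus strand: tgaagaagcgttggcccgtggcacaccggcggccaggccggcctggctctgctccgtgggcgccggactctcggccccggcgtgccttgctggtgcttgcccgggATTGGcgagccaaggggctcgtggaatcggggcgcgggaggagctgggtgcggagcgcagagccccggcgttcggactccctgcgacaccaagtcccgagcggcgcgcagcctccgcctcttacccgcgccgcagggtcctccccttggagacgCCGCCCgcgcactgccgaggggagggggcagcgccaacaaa
Col4a2, chr8:11312555-11312854, plus strand: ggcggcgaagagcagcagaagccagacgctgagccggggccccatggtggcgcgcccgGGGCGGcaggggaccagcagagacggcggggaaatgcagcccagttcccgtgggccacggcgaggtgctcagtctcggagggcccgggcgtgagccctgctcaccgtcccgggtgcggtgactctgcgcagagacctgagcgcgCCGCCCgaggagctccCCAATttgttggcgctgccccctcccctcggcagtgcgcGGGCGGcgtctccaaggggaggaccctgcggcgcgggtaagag
Col3a1, chr1:45311288-45311587, plus strand: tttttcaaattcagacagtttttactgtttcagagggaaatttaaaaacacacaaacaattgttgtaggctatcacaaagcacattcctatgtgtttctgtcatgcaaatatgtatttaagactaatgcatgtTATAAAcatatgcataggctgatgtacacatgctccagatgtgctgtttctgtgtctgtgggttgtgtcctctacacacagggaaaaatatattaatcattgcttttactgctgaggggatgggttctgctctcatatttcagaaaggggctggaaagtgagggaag
Col5a3, chr9:20815018-20815317, minus strand: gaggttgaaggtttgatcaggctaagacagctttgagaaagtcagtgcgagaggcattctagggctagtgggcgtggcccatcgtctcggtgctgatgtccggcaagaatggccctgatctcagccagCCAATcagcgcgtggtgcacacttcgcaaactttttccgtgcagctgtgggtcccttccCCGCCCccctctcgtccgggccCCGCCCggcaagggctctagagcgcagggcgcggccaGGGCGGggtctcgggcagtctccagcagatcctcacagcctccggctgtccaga
Col16a1, chr4:130047590-130047889, plus strand: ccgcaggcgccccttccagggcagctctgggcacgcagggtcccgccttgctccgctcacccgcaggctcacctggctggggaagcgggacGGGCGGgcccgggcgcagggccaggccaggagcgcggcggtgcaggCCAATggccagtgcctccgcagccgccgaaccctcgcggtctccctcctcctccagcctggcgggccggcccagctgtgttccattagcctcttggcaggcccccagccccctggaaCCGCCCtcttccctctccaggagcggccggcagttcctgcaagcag
The matched letters in Col4a1, Col4a2, Col5a3 and Col16a1 were GC boxes, 1, 3, 3 and 2 in number, and 1 CCAAT each. Col3a1 differed in composition: 37.7% of its window was G or C, against 63.3% in Col5a3 and 73.7% to 74.3% in the other 3, and its 1 match was a TATAAA that begins at position -117. None of the 5 windows held the STAT or the AP-1 letters. Windows were found for 35 of the 44 collagen genes, 38 in all. Of these 38, 2 held the STAT letters, 1 the AP-1 letters, 23 a GC box, 13 a CCAAT and 5 a TATAAA. Over the 32851 windows of all genes the shares were 8.3%, 7.81%, 35.7%, 37.4% and 13.6%. No collagen match overlapped a match of another motif. Col1a1, Col9a3, Col12a1 and Col26a1 have no window in the table used.

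After cryolesion 9 of the 36 collagen genes tested changed in the mean of both genotypes, 5 higher and 4 lower, at an adjusted p under 0.05 (limma, Benjamini-Hochberg over all 29362 features). The background is 11.9% of all features called, 6.02% higher and 5.87% lower, against 25% of the collagen genes. Col5a3, Col16a1, Col4a1, Col3a1 and Col12a1 rose, by 1.73-fold to 3.94-fold. Col26a1, Col19a1, Col11a2 and Col9a3 fell, to between 0.564 and 0.837 of the control level. The genes for the main fibre-forming collagen of scars, Col1a1 and Col1a2, were not called, with changes of 0.15 ± 0.27 and -0.06 ± 0.19 on the log2 scale (SE). Over the 36 genes the median log2 change was 0.11, against -0.01 over all features. With sex as a covariate 9 were called, 8 higher and 1 lower, of which 6 were among the 9 above. With the scaling changed, median centring gave 4 higher and 2 lower, and an offset of 16 in place of 50 after background correction gave 8 higher and 4 lower, as did the authors' deposited values. The count also depended on single arrays, as did the count over all features. Of the 29362 features, 3492 were called with all arrays. Leaving out 1 array gave 928, without the second array of Il6-deficient cryolesioned against floxed control, to 5179, without the second control array. Sex as a covariate gave 2441, median centring 2354, an offset of 16 gave 3561 and the authors' deposited values 3468. For the collagen genes the counts by array were as follows. Without the first or second floxed cryolesioned array that holds an Il6-deficient control, or without the second array of Il6-deficient cryolesioned against floxed control, 2 genes were called, and only Col26a1 was called in each of these 3 fits. The first of these left Col19a1 and Col26a1, the second Col16a1 and Col26a1, and the third Col3a1 and Col26a1. Without the first or second control array 5 and 13 were called, without the first or second array of both cryolesioned groups 11 and 6, and without the first array of Il6-deficient cryolesioned against floxed control 13.

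**Figure D1:**
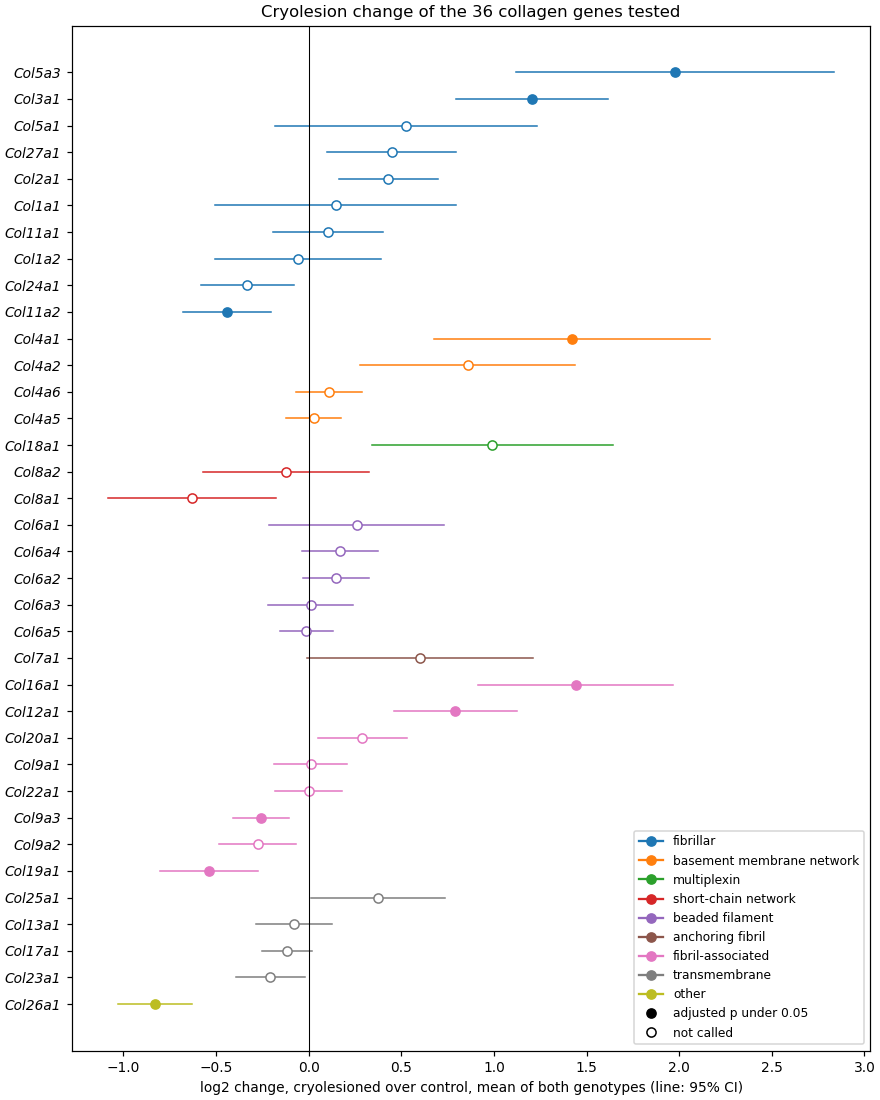
Log2 change after cryolesion, mean of both genotypes, for the 36 collagen genes tested, grouped by structural class. Points are estimates from 8 arrays, lines are 95% confidence intervals, and filled points have an adjusted p under 0.05. Col5a3 (1.98) and Col26a1 (-0.83) lie at the ends, and the 4 transmembrane collagens span -0.21 to 0.37 with none called.

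Of the fibrillar collagens, 10 of 11 were tested: 2 rose, 1 fell and 7 were not called, with a median log2 change of 0.29. Col3a1 encodes the chain of type III collagen, a fibre common in vessel walls and in early scars. Its log2 level was 6.94, 6.74, 6.95 and 6.87 in the 4 floxed controls and 6.71, 6.64, 6.95 and 6.76 in the 4 Il6-deficient controls. In floxed cryolesioned mice it was 8.72, 8.46, 7.13 and 7.57, and in Il6-deficient cryolesioned mice 7.57, 6.94, 7.62 and 7.56. Each floxed cryolesioned mouse was above every control, while 1 Il6-deficient cryolesioned mouse (6.94) lay inside the control range of 6.64 to 6.95. On the 4 arrays of cryolesioned against control the log2 ratio was 1.77 and 1.70 for floxed and 0.67 and 0.69 for Il6-deficient lesions. The mean change was 1.21 ± 0.17 (SE; adjusted p = 0.00862), or 2.31-fold. It was not called without the first or the second floxed cryolesioned array, where the highest adjusted p was 0.0547.

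Col5a3 encodes a less common chain of type V collagen, which helps start fibres and is made by few tissues. The controls lay close together, at 6.58, 6.91, 6.47 and 6.55 in floxed and 6.57, 6.78, 6.70 and 6.62 in Il6-deficient mice. After cryolesion the level was 9.17, 9.50, 7.30 and 7.83 in floxed and 8.79, 7.41, 6.98 and 8.60 in Il6-deficient mice. All 8 cryolesioned mice were above all 8 controls, and the spread among them (SD 0.94) was wider than among controls (SD 0.14). The log2 ratios on the 4 arrays were 2.46, 2.88, 0.51 and 2.05. On average the change was 1.98 ± 0.36 (SE; adjusted p = 0.0184), or 3.94-fold, the highest of the 36 genes. Left out in turn, each of both floxed cryolesioned arrays and the second Il6-deficient cryolesioned array against a control ended the call, with an estimate no lower than 1.44 and an adjusted p of at most 0.0945. Col5a1, the gene of the main type V chain, was not called at 0.53 ± 0.30 (SE). Its levels spread widely within groups, from 7.72 to 8.76 in floxed controls and from 8.05 to 10.004 in Il6-deficient cryolesioned mice. The third type V gene, Col5a2, was above background in 2 of 16 channels, both cryolesioned, and was not tested.

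Neither chain of type I collagen, the bulk of mature scar fibres, was called. Col1a1 was at 7.50, 7.14, 7.79 and 7.97 in floxed controls and 7.29, 7.58, 7.45 and 7.30 in Il6-deficient controls. Its cryolesioned levels were 8.09, 7.96, 7.18 and 7.26 in floxed and 7.95, 6.63, 7.66 and 7.37 in Il6-deficient mice, so the groups overlapped. For Col1a2 the controls were at 9.38, 9.29, 9.75 and 9.21 (floxed) and 9.32, 9.37, 9.20 and 9.16 (Il6-deficient). The cryolesioned mice were at 9.72, 9.51, 8.76 and 9.08 (floxed) and 9.25, 8.33, 8.90 and 8.96 (Il6-deficient), and again overlapped them. Both genes had ratios of opposite sign by pairing: 0.64 and 0.66 (Col1a1) and 0.52 and 0.36 (Col1a2) for floxed lesions over Il6-deficient controls, and -0.13 and -0.59 (Col1a1) and -0.86 and -0.25 (Col1a2) for Il6-deficient lesions over floxed controls. The 95% interval of the mean change was -0.50 to 0.80 for Col1a1 and -0.50 to 0.39 for Col1a2, so that a rise as large as that of Col12a1 (0.79) lies just inside the first. A second Col1a1 probe gave 0.16, close to the 0.15 of the first.

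Col11a2 encodes a chain of type XI collagen, a fibrillar collagen best known in cartilage. Its level was 6.91, 7.43, 7.06 and 6.75 in floxed controls and 6.97, 7.13, 6.87 and 7.33 in Il6-deficient controls. In cryolesioned mice it was 6.61, 6.46, 6.34 and 6.34 (floxed) and 6.41, 6.37, 6.78 and 6.40 (Il6-deficient). The cryolesioned mice were the lower ones in each genotype, with a single Il6-deficient mouse at 6.78 that reached the lowest control at 6.75. Its mean change was -0.44 ± 0.10 (SE; adjusted p = 0.0358). The call was lost with sex as a covariate (-0.52, adjusted p = 0.0507) and without any of 5 single arrays, namely the first control array, either floxed cryolesioned array, the second of both cryolesioned groups and the second Il6-deficient cryolesioned array against a control, where the highest adjusted p was 0.171. Median centring and a fit with mouse numbers as a block also ended the Col11a2 call. It held in 10 of 18 alternatives (adjusted p up to 0.193, limma). The rest of the class was not called. Col2a1, the cartilage collagen, had 0.43 ± 0.11 (SE; adjusted p = 0.0532) from a probe above background in 12 of 16 channels, Col27a1 had 0.45 ± 0.15 (adjusted p = 0.0975), Col24a1 -0.33 ± 0.11 (adjusted p = 0.0925) and Col11a1 0.11 ± 0.12 (adjusted p = 0.639).

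**Figure D2:**
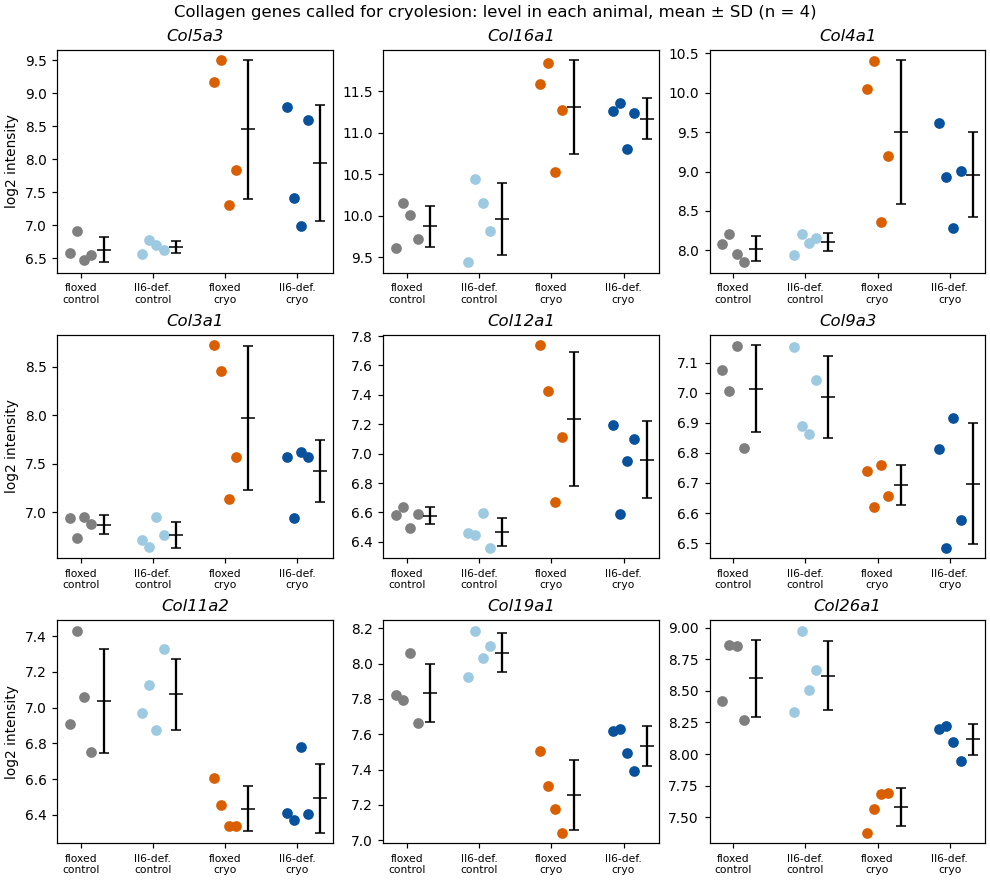
Log2 intensity in each of the 16 mice for the 9 collagen genes called in the mean of both genotypes, with 1 point per mouse and the mean ± SD of 4 mice beside each group; the vertical scales differ between panels and none starts at 0. In Col5a3, Col4a1 and Col3a1 the first and second floxed cryolesioned mice lie above the third and the fourth, and Col26a1 and Col19a1 show all cryolesioned mice below all controls.

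Of the 6 basement membrane network genes, 4 were tested: 1 rose and 3 were not called. Col4a1 and Col4a2 encode the paired chains of the type IV collagen found in nearly all basement membranes, capillaries included. Col4a1 was at 8.08, 8.21, 7.96 and 7.85 in floxed controls and 7.95, 8.21, 8.10 and 8.15 in Il6-deficient controls. The cryolesioned levels were 10.04, 10.40, 8.36 and 9.20 in floxed and 9.61, 8.93, 8.29 and 9.01 in Il6-deficient mice. All 8 cryolesioned mice were above all 8 controls, the lowest of them by little (8.29 against 8.21). Its mean change was 1.42 ± 0.31 (SE; adjusted p = 0.0327), or 2.68-fold, from array ratios of 1.95, 2.24, 0.33 and 1.16. The call held in 10 of 18 alternatives. Those that ended it include median centring, the lack of a filter on dim probes, and leaving out the first control array, either floxed cryolesioned array, the second array of both cryolesioned groups or the second Il6-deficient cryolesioned array against a control (adjusted p up to 0.13).

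Col4a2, which shares the start region with Col4a1, was at 8.48, 8.84, 8.68 and 8.37 in floxed and 8.18, 8.72, 8.90 and 8.85 in Il6-deficient controls. The cryolesioned values were 10.001, 10.41, 8.70 and 9.31 in floxed and 9.70, 9.33, 8.63 and 9.18 in Il6-deficient mice. The same 2 floxed mice were highest as for Col4a1, and 1 mouse in each cryolesioned group lay within the control range. Its change, 0.86 ± 0.24 (SE; adjusted p = 0.067), was not called, and its interval of 0.28 to 1.44 overlaps that of Col4a1 (0.68 to 2.17). An offset of 16, the authors' deposited values and sex as a covariate took the adjusted p to 0.0478, 0.0477 and 0.0473. Col4a5 and Col4a6, the chains of a rarer network, had 0.03 ± 0.06 and 0.11 ± 0.07 (SE). Col4a3 and Col4a4, chains of the kidney and lung network, were above background in 0 of 16 channels.

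Col18a1, a heparan-sulphate-bearing multiplexin of vascular basement membranes and the parent of endostatin, had the same highest floxed cryolesioned mice. Its level was 7.76, 7.27, 7.73 and 7.55 in floxed controls and 7.51, 7.59, 7.65 and 7.55 in Il6-deficient controls. Lesioned cortex had 8.88, 9.44, 7.53 and 8.44 in floxed and 8.23, 8.003, 7.86 and 8.27 in Il6-deficient mice. All 4 Il6-deficient cryolesioned mice were above all controls, but 1 floxed cryolesioned mouse (7.53) was not. The change of 0.99 ± 0.28 (SE; adjusted p = 0.0625), or 1.99-fold, was not called. It was called with an offset of 16 (adjusted p = 0.0458), with the authors' deposited values (0.0457) and with sex as a covariate (0.0378). The other multiplexin, Col15a1, was above background in 0 channels.

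The 8 fibril-associated collagens tested, of 9, moved both ways: 2 rose, 2 fell and 4 were not called. Col16a1 encodes a minor collagen found beside fibres and basement membranes. Its level was 9.62, 10.15, 10.01 and 9.72 in floxed and 9.44, 10.45, 10.16 and 9.82 in Il6-deficient controls. With the lesion it was 11.59, 11.83, 10.53 and 11.27 in floxed and 11.27, 11.36, 10.80 and 11.24 in Il6-deficient mice. No cryolesioned mouse overlapped a control. Averaged over both genotypes the change was 1.44 ± 0.22 (SE; adjusted p = 0.0106), or 2.72-fold, with array ratios of 1.43, 2.02, 0.79 and 1.52. It was the collagen gene called within Il6-deficient mice alone, at 1.62 ± 0.31 (SE; adjusted p = 0.0498), just inside the threshold. The mean change lost its call without the first floxed cryolesioned array or without the second Il6-deficient cryolesioned array against a control (adjusted p up to 0.0716).

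Col12a1, whose product tethers fibres in tissue under load, was at 6.58, 6.64, 6.50 and 6.59 in floxed controls and 6.46, 6.44, 6.59 and 6.36 in Il6-deficient controls. It was at 7.74, 7.42, 6.67 and 7.11 in floxed and 7.19, 6.59, 6.95 and 7.10 in Il6-deficient cryolesioned mice. Each floxed cryolesioned mouse was above all controls, and 1 Il6-deficient cryolesioned mouse (6.59) was not. The mean change was 0.79 ± 0.14 (SE; adjusted p = 0.0165), or 1.73-fold. Its second probe, above background in 6 channels, gave 0.25 (adjusted p = 0.0941). Without either floxed cryolesioned array or the second Il6-deficient cryolesioned array against a control, the adjusted p rose to at most 0.0907.

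Col19a1 and Col9a3 fell. Col19a1 encodes a collagen that in brain is known from subsets of neurons and from synapse formation. It was at 7.82, 7.79, 8.06 and 7.66 in floxed and 7.93, 8.19, 8.03 and 8.10 in Il6-deficient controls. It was at 7.50, 7.30, 7.18 and 7.04 in floxed and 7.62, 7.63, 7.50 and 7.39 in Il6-deficient cryolesioned mice, all 8 below all 8 controls. This gave a mean change of -0.54 ± 0.11 (SE; adjusted p = 0.0269). With sex as a covariate it was -0.39 (adjusted p = 0.0686). It also lost the call without the first control array, the second floxed cryolesioned array or either Il6-deficient cryolesioned array against a control (adjusted p up to 0.126), and its second probe gave -0.16 (adjusted p = 0.188). Markers of cortical neurons fell in the same mice, as given below, and their part in the result was not tested. Col9a3 encodes a chain of type IX collagen, which coats cartilage fibres. It was at 7.08, 7.005, 7.15 and 6.82 (floxed controls), 7.15, 6.89, 6.86 and 7.04 (Il6-deficient controls), 6.74, 6.62, 6.76 and 6.66 (floxed cryolesioned) and 6.81, 6.48, 6.92 and 6.58 (Il6-deficient cryolesioned). The groups overlapped through 1 Il6-deficient mouse at 6.92. The change was -0.26 ± 0.06 (SE; adjusted p = 0.0479), held in 7 of 18 alternatives, and a second probe gave -0.01 (adjusted p = 0.964). With sex as a covariate it was -0.27 (adjusted p = 0.0907). Of the 8 arrays, 6 ended this call when left out, the exceptions being the second control array and the first Il6-deficient cryolesioned array against a control (adjusted p up to 0.217). Col9a2 had -0.28 ± 0.09 (adjusted p = 0.0924) and was not called.

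Col26a1 encodes a small collagen first described in testis and ovary and set apart from the other classes here. It had the lowest adjusted p of the collagen genes. The level was 8.42, 8.86, 8.85 and 8.27 in floxed controls and 8.34, 8.98, 8.51 and 8.67 in Il6-deficient controls. In lesioned cortex it was 7.37, 7.57, 7.69 and 7.69 in floxed and 8.20, 8.22, 8.10 and 7.95 in Il6-deficient mice. All cryolesioned mice were below all controls, and the 4 floxed were below the 4 Il6-deficient ones. The mean change was -0.83 ± 0.08 (SE; adjusted p = 0.0029), a level of 0.564 of the control. The call was kept in all 18 alternatives (log2 change -1.15 to -0.45, adjusted p at most 0.046). A second Col26a1 probe, also above background in all 16 channels, gave -0.08 (adjusted p = 0.564), so the fall belongs to the brighter probe and not to both. Where the 2 probes lie on the transcript is not known here.

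The remaining classes had no call. Of the short-chain network genes, Col8a1, a chain of vessel walls, had -0.63 ± 0.19 (adjusted p = 0.079), with 7.98 to 8.32 in Il6-deficient cryolesioned mice below 8.69 to 9.14 in their controls, and floxed mice overlapping. Col8a2 had -0.12 ± 0.19, and Col10a1, the growth-plate collagen, was above background in 0 channels. The beaded-filament genes of type VI collagen, which surround cells and vessels, ran from -0.01 (Col6a5) to 0.26 (Col6a1) over 5 tested. Col6a6, and Col28a1 of the same class but not of type VI, were above background in 0 channels. Col7a1, the anchoring-fibril collagen of epithelia, had 0.60 ± 0.26 (adjusted p = 0.181). Among transmembrane collagens Col25a1, a neuronal membrane collagen, had 0.37 ± 0.15 (adjusted p = 0.162) and its second probe 0.00, and Col23a1, Col17a1 and Col13a1 had -0.21, -0.12 and -0.08. A second Col23a1 probe, also above background in all 16 channels, gave -0.30 (adjusted p = 0.0657, limma). By that probe the change was -0.54 in floxed and -0.05 in Il6-deficient mice, an interaction of 0.48 ± 0.17 (SE) that was not called. The last fibril-associated genes, Col20a1, Col9a1 and Col22a1, had 0.29, 0.01 and 0.00, and Col14a1 was above background in 3 channels and was not tested.

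The plot of ratios by array shows how the mean was made. The first and second floxed cryolesioned mice and the third and the fourth Il6-deficient cryolesioned mice enter it; the other 4 cryolesioned mice were hybridised against each other and do not enter it, but inform the spread, the genotype comparison, the changes within each genotype and the interaction. Their levels can be set against the 4 mice of the control arrays, which do not enter the mean either, although this compares levels across arrays. Of the 9 called genes, 8 did not overlap between these 4 cryolesioned and 4 control mice, and of the 27 not called 3. Over all features, most of them not called, the share was 13%. The 9 were picked by their lesion change in a fit whose spread these arrays inform. The count is therefore not an independent check of the calls. The differences of means had the sign of the call in all 9. For Col5a3, Col16a1, Col4a1 and Col3a1 they were 1.13, 1.19, 0.91 and 0.55, lower than the mean changes in the fit. Col12a1 was the called gene that overlapped, at 6.59 to 7.19 against 6.44 to 6.64. Its difference was 0.36, beside a mean change of 0.79 in the fit. For Col26a1, Col19a1 and Col11a2 they were -0.70, -0.57 and -0.74. Over all 16 mice, 5 of the 36 collagen genes did not overlap between cryolesioned and control mice (3 higher, 2 lower), against 4.98% of all features.

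**Figure D3:**
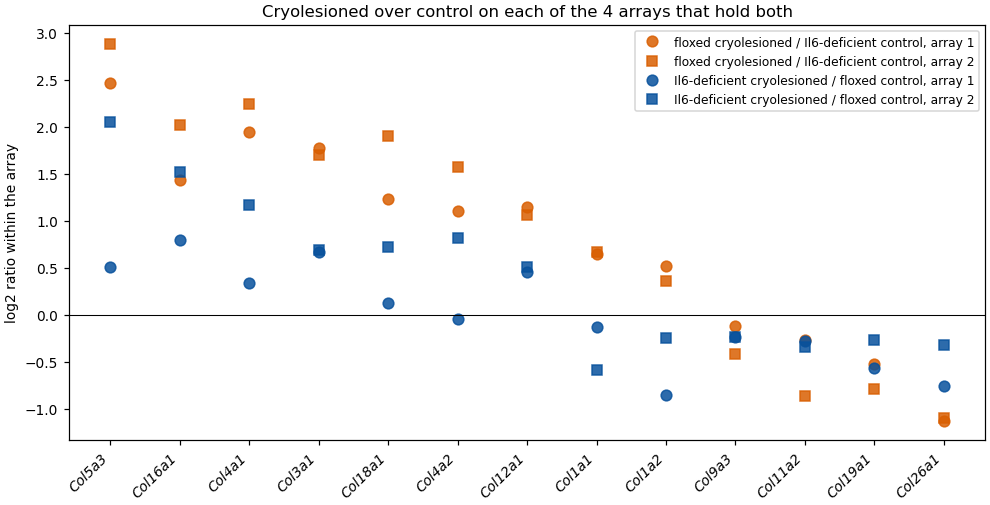
Log2 ratio of cryolesioned over control on each of the 4 arrays that carry both, for the 9 called genes and Col4a2, Col18a1, Col1a1 and Col1a2. Each array holds 1 mouse of each state and of different genotypes; for the genes that rose, the lowest ratio for Col5a3 (0.51) and Col4a1 (0.33) came from the first array of Il6-deficient cryolesioned against floxed control.

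The first and second floxed cryolesioned mice were the highest of their group for Col3a1, Col4a1, Col4a2, Col5a3, Col16a1, Col12a1, Col18a1, Col1a1 and Col1a2, and the third was the lowest for all of these. The first and second shared their arrays with a control mouse, and the third and the fourth with a cryolesioned mouse. Mouse, array and partner therefore cannot be told apart. Some marker lists were also higher in the first and the second. The mean level of 17 meningeal fibroblast markers was 8.80 and 8.76 in the first 2 and 8.26 and 8.24 in the third and the fourth, and that of 14 endothelial markers was 9.56 and 9.58 against 9.27 and 9.31. Among Il6-deficient cryolesioned mice the second had the lowest meningeal mean (7.88, the others 8.27 to 8.87) and the lowest Col3a1, Col1a1, Col1a2 and Col12a1. Col4a1, Col4a2, Col5a3, Col16a1 and Col18a1 did not follow that order. They were lowest in the third Il6-deficient cryolesioned mouse, whose meningeal mean was 8.57. The part of these markers in the collagen values was not tested. In a piece of tissue, fewer cells of a type and less RNA per cell cannot be told apart.

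Between cryolesioned and control mice the following marker lists were compared by the same fit. Over all features 6.02% were called higher and 5.87% lower, against which a single call in a short list does not stand out. Meningeal fibroblast markers had 2 higher (Dcn, Igfbp2) and 3 lower (Fmod, Ogn, Igf2) of 17, with group means from 8.40 to 8.70. Mural cell markers had 2 higher (Tagln, at 2.18 on the log2 scale, and Kcnj8) and 2 lower (Vtn, Cspg4) of 13, and their mean was 8.86 and 8.80 in controls and 9.06 and 8.96 after cryolesion. Endothelial markers had 2 higher (Cdh5, Esam) and 3 lower (Itm2a, Slco1a4, Abcb1a) of 14. Microglial and macrophage markers had 4 higher (Cd68, Lyz2, Mrc1, Cx3cr1) and 3 lower (P2ry12, Tmem119, Csf1r) of 10. Astrocyte markers had 2 higher (Gfap, at 3.58, and Aqp4) and 2 lower (Aldoc, Gja1) of 8. Neuronal markers had 0 higher and 3 lower (Tbr1, Camk2a, Map2) of 10. All 10 neuronal and 8 astrocyte markers were above background in all 16 channels, so the defining cells of the labelled cortex were present. Choroid plexus markers were above background in all 16 channels for 5 of 9, with 1 lower (Enpp2). Whether the signal of each, Enpp2 included, came from choroid plexus was not tested. The mean of these markers ranged from 7.38 to 9.52 among controls and from 7.06 to 8.09 after cryolesion. Of the muscle and bone markers that would mark skull or muscle in the dissection, Ckm and Ibsp were above background in 0 channels and 1 of 7 tested was lower (Alpl).

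Within floxed mice 1 of 36 collagen genes was called, Col26a1, which was lower at -1.08 ± 0.12 (SE; adjusted p = 0.0108), against 3.05% of all features (1.86% higher, 1.19% lower). Within Il6-deficient mice 1 was called, Col16a1, which was higher, against 2.73% (1.67% higher, 1.07% lower). Both counts, 2.78% of the collagen genes, sit at the background. The Col26a1 call in floxed mice was lost without the first control array, the first floxed cryolesioned array or the second array of both cryolesioned groups (adjusted p up to 0.0779 over the alternatives). The Col16a1 call held in 7 of 18 alternatives (adjusted p up to 0.423). It was lost without any single array other than the second control array and the first Il6-deficient cryolesioned array against a control. In levels, 9 genes did not overlap between floxed cryolesioned and floxed control mice, 5 higher and 4 lower, against 14.8% of all features; they were the 9 called in the mean of both genotypes. In Il6-deficient mice the count was 12, 6 higher (Col16a1, Col18a1, Col27a1, Col2a1, Col4a1, Col5a3) and 6 lower (Col11a2, Col19a1, Col26a1, Col8a1, Col9a1, Col9a2), against 17.3%. Of these, Col9a1 was above background in only 2 of the 4 Il6-deficient cryolesioned mice. Col2a1 separated by little, at 6.27 (lowest cryolesioned) against 6.25 (highest control), and its probe was not above background in either of those mice.

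Set side by side, the fitted changes of the genes that rose were 1.68 and 2.28 for Col5a3, 1.27 and 1.62 for Col16a1, 1.14 and 1.70 for Col4a1, 1.18 and 1.24 for Col3a1, and 0.71 and 0.87 for Col12a1, floxed first. For those that fell they were -1.08 and -0.57 (Col26a1), -0.67 and -0.41 (Col19a1), -0.53 and -0.36 (Col11a2) and -0.24 and -0.28 (Col9a3). The 2 genotype changes use the same genotype arrays in the fit, so they are not independent of each other. The order of the genotypes among the 5 genes that rose turned with the method. The ratio fit put the Il6-deficient change above the floxed one for each of the 5, while the difference of group mean levels, cryolesioned minus control, put the floxed one above it. For Col5a3 that difference was 1.82 in floxed and 1.28 in Il6-deficient mice, for Col4a1 1.48 and 0.86, for Col3a1 1.10 and 0.66, for Col16a1 1.43 and 1.20, and for Col12a1 0.66 and 0.49. The separate-channel fit gave the order of the group means, with interactions of -0.30 for Col5a3, -0.37 for Col4a1, -0.33 for Col3a1, -0.11 for Col16a1 and -0.10 for Col12a1, each with an adjusted p of 0.999 (limma). The data therefore give no settled direction for a genotype difference in these 5 responses. No interaction was called among the 36 collagen genes or among all 29362 features (0%), and 2 collagen genes had an unadjusted p under 0.05, against 3.31% of all features.

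**Figure D4:**
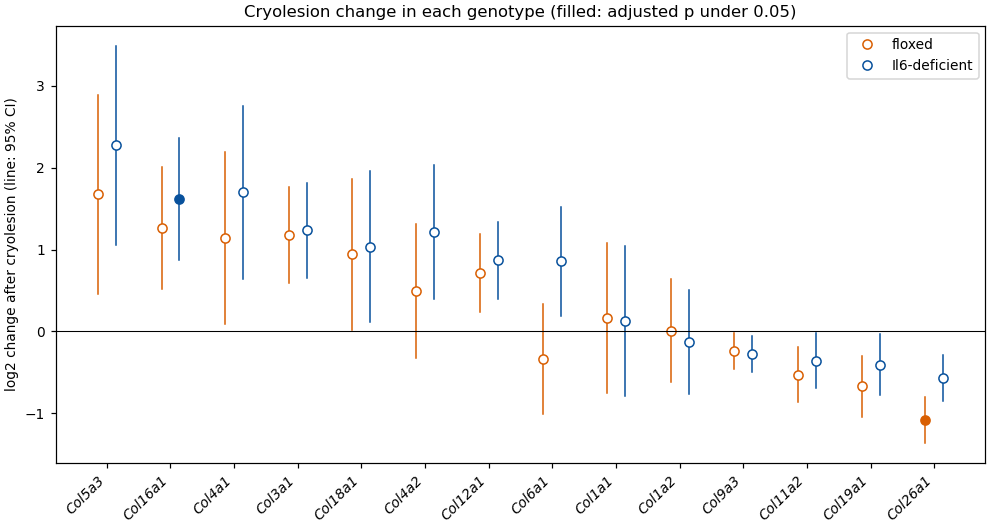
Log2 change after cryolesion in floxed and in Il6-deficient mice, with 95% confidence intervals, for the 9 called genes and Col4a2, Col18a1, Col6a1, Col1a1 and Col1a2; filled points have an adjusted p under 0.05. The intervals of the 2 genotypes overlap for each gene shown, and Col6a1 and Col26a1 show the widest separation relative to their intervals.

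The 2 genes with an unadjusted interaction p under 0.05 were Col26a1 and Col6a1. For Col26a1 the response of Il6-deficient mice minus that of floxed mice was 0.51 ± 0.17 (SE; adjusted p = 1, limma). Col6a1, the gene of a type VI chain, had -0.34 in floxed and 0.86 in Il6-deficient mice, an interaction of 1.19 ± 0.40 (SE; adjusted p = 1, limma). Its levels overlapped in all groups, at 10.05, 10.78, 10.37 and 9.64 (floxed controls), 9.45, 10.50, 10.04 and 10.10 (Il6-deficient controls), 9.81, 10.50, 10.41 and 9.63 (floxed cryolesioned) and 11.02, 10.53, 10.20 and 10.68 (Il6-deficient cryolesioned).

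After cryolesion no collagen gene was called between genotypes, nor was any feature (0%), and 4 of 36 had an unadjusted p under 0.05, against 8.61% of all features. Col26a1 was higher in Il6-deficient mice by 0.53 ± 0.10 (SE; adjusted p = 0.563, limma), with ratios of 0.51 and 0.53 on the 2 arrays that hold both cryolesioned groups. It was the 1 collagen gene whose 4 and 4 cryolesioned mice did not overlap between genotypes, against 4.46% of all features, and its second probe gave 0.01. Col6a1 (0.76), Col19a1 (0.38) and Col24a1 (0.31) were the other 3. The mean level of the 10 neuronal markers was also higher in Il6-deficient mice, at 13.19 to 13.31 against 12.77 to 13.09 in controls, without overlap, and at 12.63 to 13.07 against 12.52 to 12.73 after cryolesion; its part in the Col19a1 difference was not tested. The main scar and basement membrane genes had wide intervals: 0.05 for Col4a1 (95% interval -0.86 to 0.96), -0.30 for Col3a1 (-0.80 to 0.21), -0.23 for Col1a1 (-1.02 to 0.57) and -0.35 for Col1a2 (-0.90 to 0.20). Differences between these bounds are not excluded by this fit for those 4 genes. For Col4a1 the group mean levels gave -0.54, and the ratios on the 2 arrays were 1.25 and -0.27.

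Without a lesion, 0 collagen genes were called between genotypes by limma, in the ratio fit or in the separate-channel fit, and 0 had an unadjusted p under 0.05, against 0% and 4.42% of all features. Of the 36 genes, 9 were higher in Il6-deficient controls and the median log2 difference was -0.11, against a median of 0.01 over all features, of which 54.1% were higher. These fitted values also draw on the arrays with cryolesioned mice. By the group mean levels of the control mice, 18 of the 36 were higher in Il6-deficient controls, against 54.9% of all features, so the shift of the fitted median was not seen in the levels. Levels of 1 gene, Col27a1, did not overlap between the genotypes (lower in Il6-deficient controls), against 4.01% of all features. The lowest fitted estimates were -0.53 for Col5a3, -0.52 for Col4a2 and -0.51 for Col4a1 (SE 0.44, 0.30 and 0.39). The ratios on the 2 control arrays were nearer 0, at -0.01 and -0.13 for Col5a3, -0.30 and -0.12 for Col4a2 and -0.13 and 0.0025 for Col4a1. The group mean levels were slightly higher in Il6-deficient controls, by 0.04 for Col5a3, 0.07 for Col4a2 and 0.08 for Col4a1.

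Collagen chains are hydroxylated, folded, exported, trimmed and cross-linked by a set of other proteins, and these were tested as lists. In the mean cryolesion change, 6 of 14 modifying enzymes and partners rose and 1 fell, with a median of 0.22. Those that rose were Fkbp10 (0.64 ± 0.10) and Crtap (0.54 ± 0.11), helpers of prolyl and lysyl modification, the prolyl 4-hydroxylase subunits P4hb (0.53 ± 0.07) and P4ha3 (0.50 ± 0.12), and the lysyl hydroxylases Plod3 (0.61 ± 0.15) and Plod1 (0.33 ± 0.08). The prolyl 3-hydroxylase P3h1 fell (-0.42 ± 0.07). Of 10 chaperones and export factors 3 rose: Serpinh1, the chaperone dedicated to procollagen, at 1.37 ± 0.07 (adjusted p = 0.000354), Creb3l1, a transcription factor of collagen-secreting cells, at 1.19 ± 0.18, and the coat protein gene Sec24d at 0.58 ± 0.12. Serpinh1 was called in each genotype, at 1.34 in floxed and 1.41 in Il6-deficient mice.

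Of 13 cross-linking and assembly genes 4 rose and 1 fell. The transglutaminase Tgm2 (1.42 ± 0.23), the fibril-binding proteoglycan Dcn (1.40 ± 0.31), the lysyl oxidase Loxl1 (1.16 ± 0.23) and the matrix protein Tnc (0.87 ± 0.10) were higher, and Fmod, a proteoglycan of type I fibrils, was lower (-0.91 ± 0.17). Dcn and Fmod are also in the meningeal list. Of 16 basement membrane partners 2 rose, the perlecan gene Hspg2 (0.81 ± 0.14) and the nidogen gene Nid2 (0.31 ± 0.07), and Hspg2 was called in Il6-deficient mice (1.13 ± 0.19). None of the laminin genes was called. Among 10 collagen receptors Lair1, an inhibitory receptor of immune cells (0.85 ± 0.12), and the integrin chain Itgb1 (0.54 ± 0.13) rose. Of 7 collagen-degrading enzymes tested, stromelysin Mmp3 (2.18 ± 0.22) and the membrane collagenase Mmp14 (0.39 ± 0.06) rose and Fap fell (-0.48 ± 0.07). Of 7 propeptide-processing genes 1 changed, Adamts2, which was lower (-0.44 ± 0.11). No gene of these 7 lists was called for genotype or interaction. These counts stand beside the 6.02% of features called higher and 5.87% called lower.

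**Figure D5:**
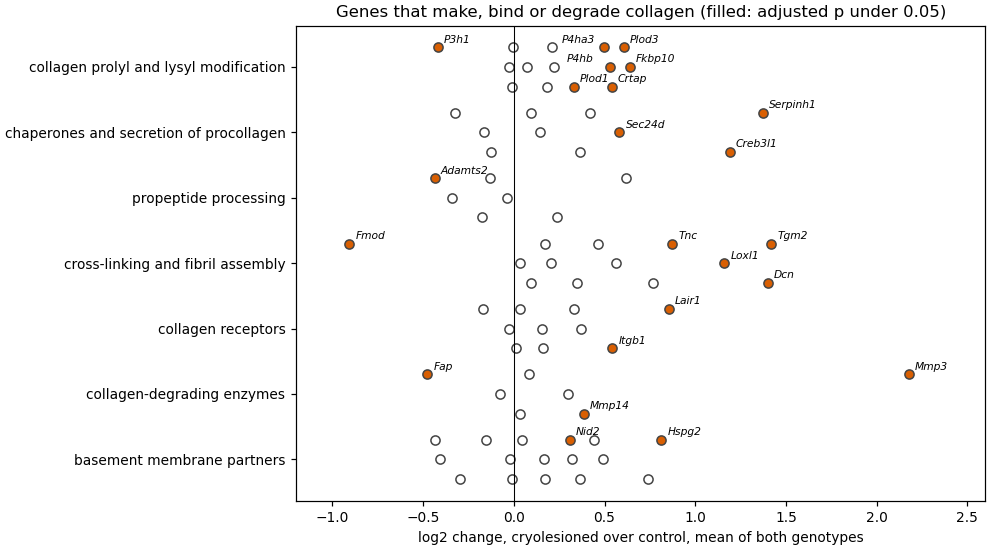
Log2 change after cryolesion, mean of both genotypes, for the tested genes of 7 lists that modify, fold, process, assemble, bind or degrade collagen; each point is 1 gene, its height within a row has no meaning, and filled points have an adjusted p under 0.05. Serpinh1 (1.37) and Creb3l1 (1.19) stand right of the other chaperone and secretion genes, and Mmp3 (2.18) is the highest gene shown.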

How the data were processed

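Cortical RNA of 16 mice was hybridised on 8 2-colour Agilent arrays. The authors scanned them and extracted spot intensities with Agilent Feature Extraction 10.7.3.1, per the submitters' processing notes. The deposited files also hold the scanner's log10 ratio, which served to check the direction of each array. The authors' deposited value table holds log2 ratios, with a centring not given in the sources used here; its columns correlated with the ratios computed here at 0.967 to 0.977. Median intensities (median 111 to 144 in Cy5 and 45 to 59 in Cy3) were corrected by normexp with an offset of 50 and normalized by loess within arrays in limma 3.58.1 (R 4.3.3). Control spots and spots marked as outliers (115 to 194 an array) were left out. Probes were named through RefSeq accessions: 32994 of 56605 had a symbol. Probes well above background in at least 4 of 16 channels were kept (37352), the brightest probe stood for each gene, and 29362 features were tested (16852 genes, 12510 unnamed probes).

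Ratios were fitted with a dye term and 4 groups (4 residual degrees of freedom), p-values were adjusted by Benjamini-Hochberg over all features, and a call is an adjusted p under 0.05. Levels are channel values after quantile scaling of the mean intensities. The script was tested on simulated data. Array number limits the precision. The labels call the mice biological replicates.

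Numbers shared by mice of different groups were checked for pairing. Over 24 pairs the correlation of deviations ran from -0.251 to 0.529, and 10 exceeded 0.1. Each pair of number 2 was positive, at 0.114 to 0.365. The highest value, 0.529, was between the third mice of both cryolesioned groups, which were on different arrays. The main fit did not treat the numbers as pairs, a choice that these values do not settle. A fit with the numbers as a block is given among the alternatives.

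Every member is accounted for; each mouse's value is printed for genes called in any comparison and for Col1a1, Col1a2, Col3a1, Col4a1, Col4a2 and Col18a1. From the other lists the called genes are named; the result of 1 further marker list is not reported here. Col6a1 is shown by mouse because its values were seen first. The members and lists were chosen with earlier results of these data known. The alternatives were another centring, offset, signal, filter, probe rule, a separate-channel fit, a block, sex, and leaving out each array. No genome coordinates of probes were used, since the array design names another build than the promoter table.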

Additional observations from a re-analysis of the deposited data

Results flagged for a closer look

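In 2 of 52 groups of 4 mice (13 genes, 4 groups each), the mouse at one end stood apart from the others by more than Dixon's 95% critical value for 4 samples, which applies to the gap to the nearest mouse divided by the range of the group. Chance sets apart about 5% of such groups. Col3a1 in the second Il6-deficient cryolesioned mouse was at 6.94, and the other 3 lay between 7.56 and 7.62 (ratio 0.921); that mouse also had the lowest mean of the meningeal markers. Col11a2 in the third Il6-deficient cryolesioned mouse was at 6.78, and the other 3 lay between 6.37 and 6.41 (ratio 0.913). No collagen gene showed a difference between genotypes in its cryolesion change that passed the adjusted interaction test.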

How the results depend on the processing

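For the mean of both genotypes, 9 collagen genes were called. The separate-channel fit called 18, all 9 among them, and leaving out 1 array called between 2 and 13. Over all features, the main fit called 3492 of 29362 and the separate-channel fit 8269 of 29358. Leaving out 1 array called between 928 and 5179 features. Of the collagen genes, 6 were called with median centring, and 8 with no filter, above background in 8 channels, or with the mean over a gene's probes. Processed signals and sex called 9 collagen genes, and offset 16 and the authors' deposited values called 12. Over all features these alternatives called 2354 (median centring) to 3561 (offset 16). Within floxed mice 1 was called; 2 were called with an offset of 16, with the authors' deposited values and with sex as a covariate, 12 in the separate-channel fit, and 0 to 6 when 1 array was left out. Within Il6-deficient mice 1 was called; 0 were called with median centring, processed signals, no filter and the mean over probes, 2 with 8 channels and with sex, 3 with an offset of 16 and with the authors' values, 8 in the separate-channel fit, and 0 to 4 when 1 array was left out. With the replicate block, which leaves 2 residual degrees of freedom, 1 gene was called in the mean (Col26a1), 1 in floxed and 0 in Il6-deficient mice; the numbers are not shown to pair the mice. Over all features the block called 772 in the mean, 337 in floxed and 6 in Il6-deficient mice. The separate-channel fit called 4766 features in floxed and 3029 in Il6-deficient mice, against 896 and 803 in the main fit. Floxed first, an offset of 16 called 992 and 893 of 29362 features and the authors' deposited values 954 and 907. Sex as a covariate called 800 and 560, median centring 358 and 358, and processed signals 446 and 446. The mean over probes called 884 and 680, no filter 776 and 623 of 46522, and 8 channels 906 and 820 of 27646. Leaving out 1 array called 57 to 2140 in floxed and 37 to 1187 in Il6-deficient mice. Genotype and interaction comparisons called 0 collagen genes in each alternative, and at most 3 of all features. No called value changed sign; the genotype order of 5 responses, none called as different, did, as given above. Beyond the processing named here, the cause of each change was not tested. Precision is limited by 2 arrays a pairing, by the wide spread among cryolesioned mice, by the sex imbalance, and by probes near background such as those of Col2a1 and Col9a1 (12 of 16 channels).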

Other observations

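Of the 27 collagen genes not called in the mean of both genotypes, 3 did not overlap between the 4 cryolesioned and 4 control mice outside that mean. Over all features the share without overlap was 13%, so this count does not stand out from the background. Col1a2 was at 8.33 to 9.25 in these cryolesioned mice and at 9.29 to 9.38 in these controls, a difference of -0.48, where the mean of the arrays that hold both states was -0.06. Col9a1, a chain of type IX collagen, was at 6.01 to 6.13 against 6.41 to 6.52, a difference of -0.39 beside a mean of 0.01. Its probe was not above background in the third and the fourth floxed (6.04, 6.01) and the second Il6-deficient cryolesioned mouse (6.07). The lower range of Col9a1 therefore lies near the background. Col8a1 was at 7.77 to 8.32 against 8.34 to 9.14, a difference of -0.73 beside a mean of -0.63. These values compare levels across arrays and were not tested.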
